A study of Mus musculus with 15 samples.

Results

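Lin28a and Lin28b encode paralogous RNA-binding proteins, Trim71 encodes a RING-type E3 ligase and RNA-binding repressor of mRNAs, and Hmga2 encodes an architectural chromatin protein. The 4 genes were taken by symbol from the 24451 genes of the count table, and their levels were followed over all 15 libraries. They were chosen by their levels in these same libraries, so those levels and the fitted differences are given as a description, without a test. All 4 passed the filter on low counts, as did 14600 genes in all.

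LIN28 proteins bind precursors of the let-7 microRNAs and block their maturation. LIN28A does so in the cytoplasm by recruiting terminal uridylyl transferases, and LIN28B has been described as acting also in the nucleus. Mature let-7 in turn represses the mRNAs of Lin28a, Lin28b, Trim71 and Hmga2 through their 3′ UTRs, which makes the paralogs and let-7 a double-negative loop. In embryonic stem cells LIN28 and TRIM71 are abundant and mature let-7 is scarce, and the balance turns over as cells differentiate.

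The cells were mouse ES-R1 embryonic stem cells, 1 line at passages under 20, grown without serum in DMEM that held N2 and B27, over 4 days of differentiation. There were 5 groups of 3 libraries. With control siRNA, cells were left without addition, or were given 25 ng/ml of Activin A or an inhibitor called SB here (SB431524 in the titles, SB431542 in the text of the series). Cells with an siRNA against Vprbp, also named Dcaf1, the substrate receptor of a CRL4 ubiquitin ligase, were left without addition or were given the same Activin A. Activin signals through the receptor ALK4 to Smad2 and Smad3, and SB431542 is an inhibitor of ALK4 and related receptors. SB was used only with control siRNA, the sources used here give no dose for it, and there was no further Vprbp siRNA and no rescue.

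Between 11.15 M and 15.53 M counts (M, mega) fell in genes per library, and levels are given as CPM, counts scaled to a library of 1 M. At these depths an uncounted gene could still be at 0.196 to 0.271 CPM (3 counts), counting error only. Vprbp was at 171.0 ± 3.6 CPM in control siRNA cells and 122.2 ± 8.9 CPM after Vprbp siRNA (SD, n = 3). It fell by 0.49 ± 0.06 on the log2 scale (SE, edgeR quasi-likelihood, adjusted p = 0.002). This call was lost in 1 of 14 alternative settings, a fit of only the libraries compared. With Activin it was at 179.1 ± 4.4 and 138.3 ± 9.2 CPM and fell by 0.37 ± 0.06 (edgeR, adjusted p = 0.037), a call lost in 5 of 14 alternative settings, each without 1 library. The knockdown was therefore partial at the mRNA level, and the protein was not measured here. All 7 embryonic stem cell markers were above 1 CPM in each group, with summed levels of 3671.6 to 4150.8 CPM outside the SB group and 2312.4 to 2644.4 CPM in it. Control siRNA replicate 3, Vprbp siRNA replicate 3 and Vprbp siRNA with Activin replicate 1 lay apart from their groups in a principal component analysis, and results that move without them are given below.

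Sequences of the let-7 family show what the 4 mRNAs share. In RefSeq (GRCm38.p6), mature let-7 and miR-98 sequences with the seed GAGGUAG at bases 2 to 8 were listed for 12 loci, 10 of them different sequences. The Mirlet7a-2 hairpin also holds the letters of let-7a-5p but is not among these 12 loci. The lines below give members that differ outside the seed, let-7j, the 1 member with another seed, and a miR-125, which is encoded near some let-7 genes and carries its own seed. Capitals mark the seed.
let-7a-5p: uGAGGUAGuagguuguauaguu
let-7d-5p: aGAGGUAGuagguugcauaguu
let-7e-5p: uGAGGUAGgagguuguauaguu
let-7g-5p: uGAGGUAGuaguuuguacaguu
miR-98-5p: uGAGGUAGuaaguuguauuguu
let-7j: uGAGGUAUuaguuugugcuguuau
miR-125a-5p: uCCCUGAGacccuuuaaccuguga

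The LIN28 zinc knuckles are known to bind GGAG in the terminal loop of let-7 precursors. Of the 11 let-7 and miR-98 hairpins for which both mature arms are listed, 8 held GGAG between the arms, searched on the transcribed strand only. Between the arms of all 644 mouse hairpins with both arms listed, 52 held it (8.1%). The let-7 and miR-98 hairpins were not left out of these 644, and the length between the arms was not matched. Anywhere in the hairpin, GGAG stood in 9 of 12 let-7 and miR-98 hairpins and in 447 of all 1005 (44.5%). The hairpins below show a precursor with the motif, in capitals, and one without it, let-7b.
let-7g hairpin: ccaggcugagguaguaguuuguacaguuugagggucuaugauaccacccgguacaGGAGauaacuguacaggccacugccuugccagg
let-7b hairpin: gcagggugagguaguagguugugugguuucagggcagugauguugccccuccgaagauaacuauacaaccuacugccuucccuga

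The 3′ UTRs of all 4 mRNAs, as annotated in GENCODE M21 (GRCm38, the assembly also called mm10), held the reverse complement of the let-7 seed, CTACCTC. Lin28a had 2 matches in 2775 bases, Lin28b 4 in 4445, Trim71 4 in 5512 and Hmga2 4 in 3014. Among UTRs within 20% of the same length, at least 1 match stood in 14.5%, 23.9%, 29.6% and 15.6%, and as many matches in 2.12%, 0.24%, 0.51% and 0.13%. The 4 genes were not left out of these UTRs, so each share counts the gene itself. Over all 20590 UTRs, 9.1% held a match and 12 held 4 or more, 3 of them Lin28b, Trim71 and Hmga2. The 8-base form, CTACCTCA, made up both matches of Lin28a, all 4 of Trim71 and 1 each of Lin28b and Hmga2. The windows below are 30 bases of the mRNA strand, with the match in capitals, and were picked to show the 8-base form in each gene, the overlapping windows of a close pair in Trim71 and a 7-base match of Hmga2.
Lin28a, chr4:134005181-134005210, minus strand: cacagcctgttgaaCTACCTCAtttttgcc
Lin28a, chr4:134004543-134004572, minus strand: agatcgccacaaacCTACCTCActgtgttg
Lin28b, chr10:45381014-45381043, minus strand: cccgggcgggaagtCTACCTCAtgcaagca
Trim71, chr9:114512464-114512493, minus strand: acattgcctaagtcCTACCTCAgcttaaat
Trim71, chr9:114509039-114509068, minus strand: ttagtatggattttCTACCTCAattttggc
Trim71, chr9:114509013-114509042, minus strand: tggcaaaaagttgtCTACCTCAcgtcggca
Hmga2, chr10:120364216-120364245, minus strand: ccgacattcaatttCTACCTCAgcatcagt
Hmga2, chr10:120362979-120363008, minus strand: cccactcctcaataCTACCTCtgaatgcta

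The genes lie on the minus strand at chr4:134003330-134018841 (Lin28a, ENSMUSG00000050966.9), chr10:45376620-45486395 (Lin28b, ENSMUSG00000063804.8), chr9:114507133-114564369 (Trim71, ENSMUSG00000079259.2) and chr10:120361275-120476469 (Hmga2, ENSMUSG00000056758.14), and every window printed above is in the 3′ UTR. The first match of Lin28b began 36 bases and that of Hmga2 58 bases after the stop codon, and those of Trim71 and Lin28a 166 and 909 bases after it. The miR-125 seed match, CTCAGGG, occurred once in each of Lin28a, Lin28b and Trim71 and was not among the letters of the Hmga2 UTR. It stood in 13.3% of all UTRs and in 24.6%, 32.2% and 37.3% of UTRs of the length of the first 3 genes. A seed match is a description of letters, and binding was not measured here.

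**Figure D1:**
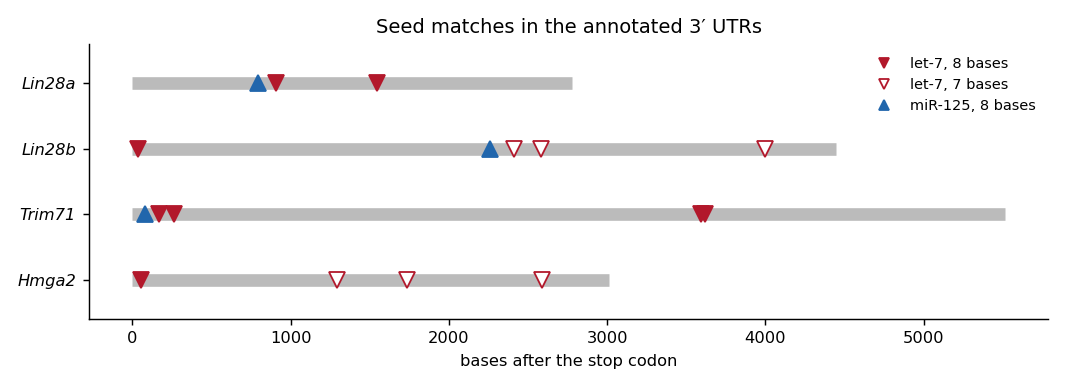
Seed matches along the annotated 3′ UTR of each gene, with the distance from the stop codon in bases on the x axis and 1 row per gene. Red triangles are let-7 matches, filled for 8 bases and open for 7, and blue triangles are miR-125 matches, of which Hmga2 has none.

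Lin28a was the most abundant of the 4 mRNAs, in CPM and per kilobase of transcript, and stood apart in the SB group. In control siRNA cells without addition it was at 366.4, 349.3 and 342.2 CPM in replicates 1 to 3, with SB at 574.4, 586.0 and 570.0 CPM, and with Activin at 319.9, 320.3 and 323.8 CPM. With Vprbp siRNA it was at 354.9, 430.8 and 337.6 CPM, and with Vprbp siRNA and Activin at 381.9, 352.6 and 310.1 CPM. Every SB library lay above every other library of the series, while all other neighbouring groups in the order of means overlapped. Against no addition, SB libraries were higher by 0.71 ± 0.08 on the log2 scale (SE), from 352.6 ± 12.4 to 576.8 ± 8.3 CPM (SD, n = 3), which is 1.64-fold. In bulk RNA, more or fewer cells expressing a gene and more or less RNA per cell cannot be told apart.

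With Activin, Lin28a in control siRNA cells was at 321.3 ± 2.2 CPM, a log2 difference of -0.13 ± 0.08, and the 3 Activin libraries lay below the 3 without addition. In Vprbp siRNA cells the same difference was -0.1 ± 0.08 (374.4 ± 49.6 to 348.2 ± 36.1 CPM) with overlapping libraries, and 0.01 without Vprbp siRNA replicate 2, the library at 430.8 CPM. The knockdown differences were 0.09 ± 0.08 without addition and 0.12 ± 0.08 with Activin, both with overlap. Without that same Vprbp siRNA replicate 2 the first of these was -0.03.

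Lin28b, the second paralog, was lower and varied less. It was at 69.3, 65.6 and 68.5 CPM in control siRNA cells, at 76.5, 72.3 and 73.4 CPM with SB and at 74.2, 77.6 and 78.5 CPM with Activin. In Vprbp siRNA cells it was at 83.6, 82.2 and 79.3 CPM, and with Activin as well at 82.9, 77.8 and 93.0 CPM. The control siRNA group without addition was the lowest, and none of its libraries reached any library of the other groups. The next step in the order of means, from SB to Activin, overlapped, the step from Activin to Vprbp siRNA did not, and the 2 Vprbp siRNA groups overlapped.

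SB and Activin, which act in opposite ways on the receptor, were thus both on the higher side of the untreated Lin28b level. The log2 differences were 0.13 ± 0.07 for SB (67.8 ± 1.9 to 74.1 ± 2.2 CPM) and 0.18 ± 0.07 for Activin (76.8 ± 2.3 CPM). These comparisons share the untreated control libraries. Set directly against SB, Activin differed by 0.05 ± 0.07, with overlap.

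For Vprbp siRNA against control siRNA without addition, Lin28b was at 81.7 ± 2.2 against 67.8 ± 1.9 CPM, a log2 difference of 0.27 ± 0.07 and 1.2-fold. Of the 4 genes it was the 1 whose libraries did not overlap in this comparison, where 12.3% of all genes tested did not overlap. With Activin on both sides the difference was 0.14 ± 0.07 (76.8 ± 2.3 to 84.6 ± 7.8 CPM) with overlap. It was 0.07 without Vprbp siRNA with Activin replicate 3, the library at 93.0 CPM. Whether the knockdown difference of Lin28b depended on Activin was not tested.

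The ratio of the paralogs was set per kilobase of transcript, using 3505 bases for Lin28a-201 and 5402 for Lin28b-201. Lin28a was at 100.61 and Lin28b at 12.55 CPM per kilobase in control siRNA cells. The ratio was 8.15, 8.21 and 7.69 in these libraries, 11.57, 12.5 and 11.97 with SB and 6.64, 6.36 and 6.36 with Activin. It was 6.55, 8.08 and 6.56 with Vprbp siRNA and 7.09, 6.99 and 5.14 with Vprbp siRNA and Activin. The SB libraries had the highest ratios of the series, and the control siRNA libraries without addition lay between them and the Activin libraries. Lin28a therefore made up most of the Lin28 mRNA in every library, and the levels of the paralogs were not measured as protein here.

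**Figure D2:**
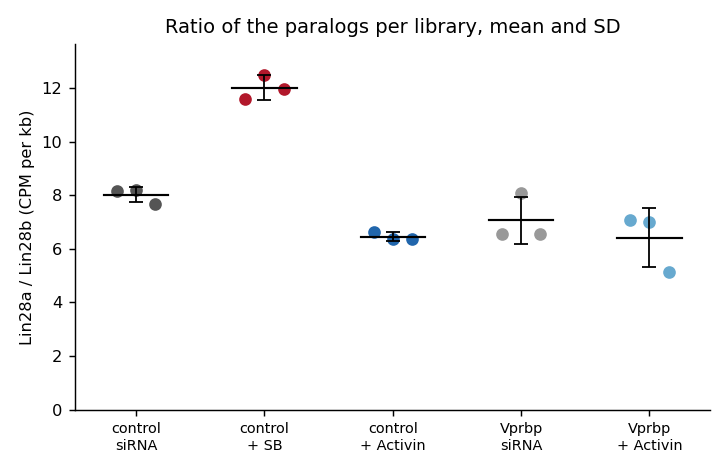
Lin28a over Lin28b, both in CPM per kilobase of transcript, for each library (points), with the group mean and SD (bars), n = 3 per group. The SB libraries lie between 11.57 and 12.5, above every other library.

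Trim71 had an SD of 3.9% of the mean in control siRNA cells without addition and of 9.6% to 14.1% in the other groups. It was at 140.2, 134.2 and 145.0 CPM in control siRNA cells, at 147.0, 193.8 and 164.2 CPM with SB and at 119.5, 124.8 and 143.1 CPM with Activin. With Vprbp siRNA it was at 137.9, 126.1 and 164.0 CPM, and with Vprbp siRNA and Activin at 127.7, 106.9 and 137.5 CPM. All neighbouring groups in the order of means overlapped. The lowest SB library lay only just above the highest library without addition.

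The log2 difference of Trim71 for SB was 0.27 ± 0.11 (139.8 ± 5.4 to 168.4 ± 23.7 CPM), and 0.16 without SB replicate 2, the library at 193.8 CPM. For Activin it was -0.11 ± 0.11 in control siRNA cells (129.2 ± 12.4 CPM) and -0.2 ± 0.11 in Vprbp siRNA cells (142.7 ± 19.4 to 124.0 ± 15.6 CPM), each with overlap. The knockdown differences were 0.03 ± 0.11 and, with Activin, -0.06 ± 0.12. Their sign turned without single libraries, to -0.08 without Vprbp siRNA replicate 3 and to 0.04 without Vprbp siRNA with Activin replicate 2.

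Hmga2, a much-studied let-7 target, differed most of the 4 genes on the log2 scale between control siRNA cells with SB, with Activin and without addition. It was at 29.3, 32.0 and 39.2 CPM in control siRNA cells, at 76.6, 56.9 and 71.8 CPM with SB and at 19, 22.0 and 16.5 CPM with Activin. In Vprbp siRNA cells it was at 36.7, 28.5 and 35.4 CPM, and with Activin as well at 38.2, 15.7 and 16.7 CPM. The SB group was apart from all others at the top, and the Activin group of control siRNA cells lay wholly below the untreated one. The table also holds a pseudogene, Hmga2-ps1, with 22 to 62 counts per library, and the counting may have split reads between the gene and this copy.

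Hmga2 was at 33.5 ± 5.1 CPM without addition, 68.5 ± 10.3 CPM with SB and 19.2 ± 2.8 CPM with Activin. The log2 differences were 1.03 ± 0.28 for SB, 2.04-fold, and -0.81 ± 0.3 for Activin, 0.57-fold. Activin against SB gave -1.84 ± 0.29. The knockdown difference without addition was 0.0 ± 0.29, at 33.5 ± 4.4 CPM with Vprbp siRNA.

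With Activin, Hmga2 depended on 1 library. Vprbp siRNA with Activin replicate 1 was at 38.2 CPM and the other 2 at 15.7 and 16.7 CPM. The Activin difference in Vprbp siRNA cells was -0.52 ± 0.29, and -1.04 without that library. The knockdown difference with Activin was 0.29 ± 0.31, and -0.22 without it. In the same library the summed level of 7 trophoblast markers was 373.7 CPM against 224.6 and 182.9 CPM in the others of its group, that of 6 primitive streak and mesoderm markers 130.1 against 42.4 and 43.5 CPM, and that of 7 endoderm markers 170.1 against 111.3 and 108.8 CPM. The spread of the trophoblast sum in this group lay mainly in Krt18 (128.6 ± 64.7 CPM) and Krt8 (43.8 ± 35.0 CPM). Tfap2c was at 82.97 ± 3.67 CPM. Hand1, Gata3 and Cdx2 had means of 2.502, 1.349 and 1.218 CPM, and Elf5 was at 0. The part of these markers in the Hmga2 level was not tested.

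**Figure D3:**
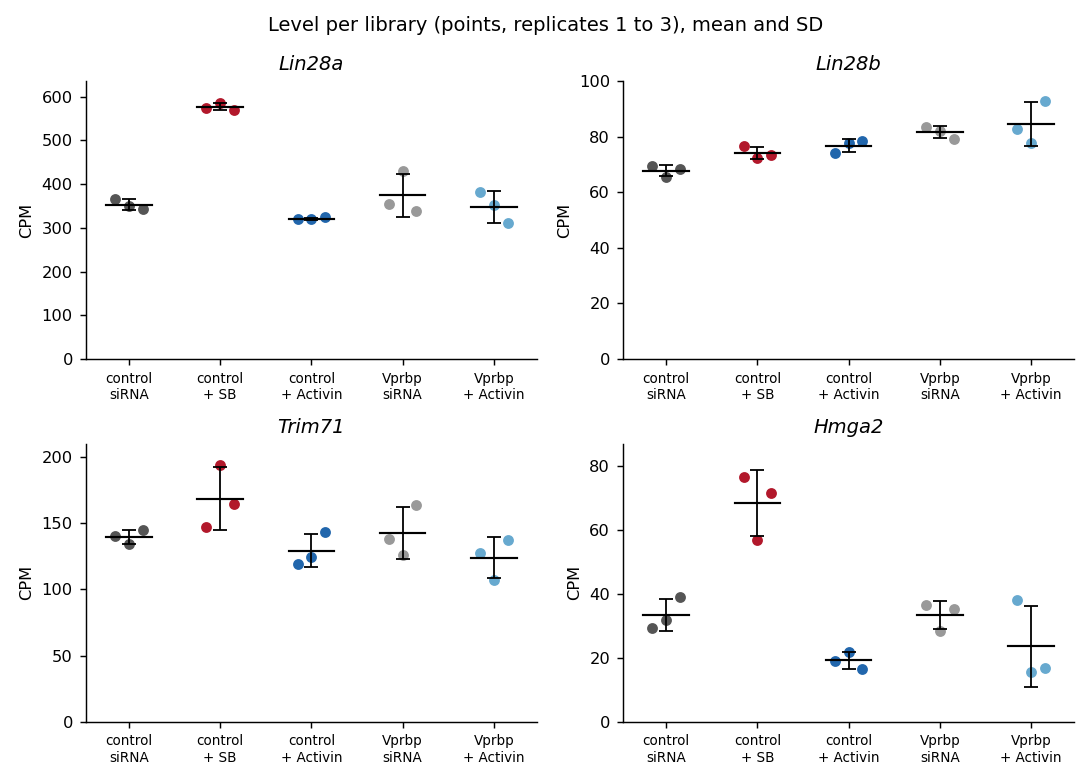
Level of each gene in CPM (y axes from 0, a scale of its own for each gene) in the 15 libraries (points, replicates 1 to 3 from left to right) of 5 groups, with mean and SD, n = 3. Lin28a and Hmga2 are highest in the SB group, while Lin28b is lowest in the control siRNA group without addition.

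Set side by side, all 4 genes were higher with SB than without addition, and the libraries of all 4 did not overlap, against 18.8% of all genes tested that were higher without overlap. Since the genes were chosen with these levels known, nothing is read from that count. With Activin in control siRNA cells, 3 of the 4 did not overlap with the untreated libraries, Lin28a and Hmga2 lower and Lin28b higher, where 27.6% of genes did not overlap. Activin against SB left 3 of 4 apart, all lower, with 54.9% of genes apart in either direction. None of the 4 was apart in the knockdown comparison with Activin (17.4% of genes) or for Activin in Vprbp siRNA cells (21.4%).

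**Figure D4:**
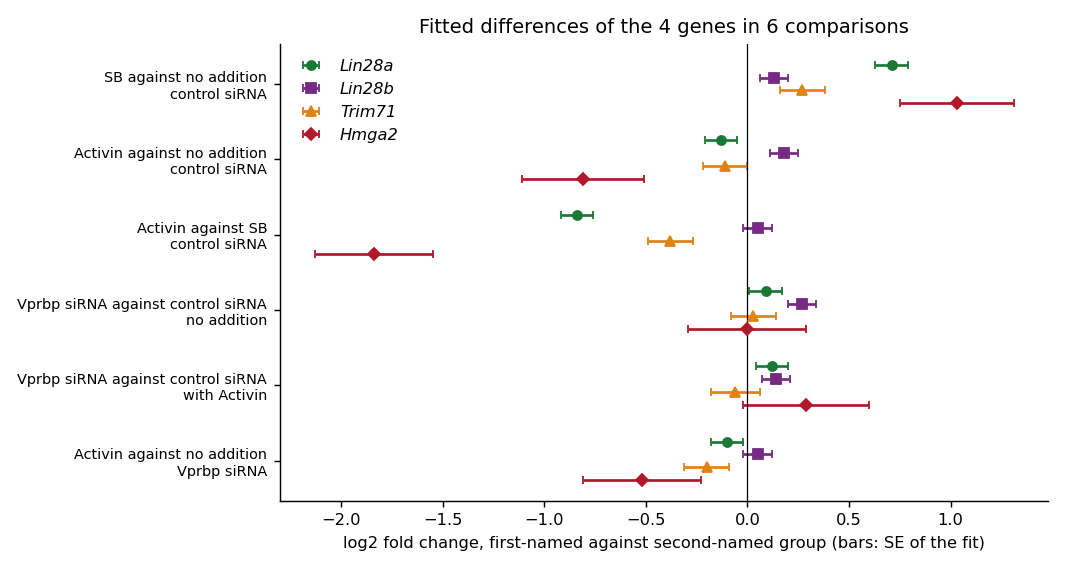
Log2 fold change (x axis, first-named group against second-named) of the 4 genes in 6 comparisons, with bars for the SE of the fit. Hmga2 and Lin28a lie farthest from 0 in the comparisons with SB, and Lin28b lies on the positive side in all 6.

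Correlations among Lin28a, Trim71 and Hmga2 were weaker within groups than over all libraries. Over the 15 libraries, Pearson's r of log2 CPM was 0.83 for Lin28a with Hmga2, 0.58 for Lin28a with Trim71 and 0.67 for Trim71 with Hmga2, and after removal of the group means 0.15, -0.43 and 0.02. Lin28b with Lin28a, Trim71 and Hmga2 gave -0.2, -0.21 and -0.32 over all libraries and -0.29, 0.27 and -0.02 within groups. The libraries are those of 5 groups, so these values describe mostly the differences between groups.

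The genes whose pattern was most like each of the 4, by Pearson's r of log2 CPM over the 15 libraries, were named by a fixed rule of 4 genes each. For Lin28a these were Ror1, a receptor tyrosine kinase-like gene (r = 0.97), Lxn (0.965), Dysf (0.963) and Rxra, a retinoid X receptor (0.962). For Hmga2 they were the netrin gene Ntn1 (0.979), Zc3hav1 (0.967), Cmtm3 (0.963) and the Wnt antagonist gene Sfrp1 (0.958). For Lin28b they were Ftx, a non-coding RNA gene of the X-inactivation centre (0.879), Zfp266 (0.878), Lmo4 (0.865) and Spred3 (0.845). For Trim71 they were Plekha8 (0.873), Crkl (0.873), Nup50 (0.869) and Sept11 (0.866). Within groups, r with Lin28a was 0.74 for Ror1 and 0.44 to 0.57 for Lxn, Dysf and Rxra. With Hmga2 it was 0.9 for Ntn1 and 0.8 to 0.88 for Zc3hav1, Cmtm3 and Sfrp1. For the genes named it was 0.6 to 0.77 with Lin28b and 0.67 to 0.79 with Trim71. Ntn1 went from 30.6 CPM without addition to 67.1 CPM with SB and 18.6 CPM with Activin, and Ror1 from 4.7 to 21.6 and 4.4 CPM.

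Other mRNAs known as let-7 targets were read from a list of 28 genes, which leaves out the 4. With SB, 12 rose and 1 fell, against 11.2% and 11.3% of all genes tested, and the median log2 difference of the list was 0.13 against -0.00 over all genes. Tgfbr1, the TGF-β type I receptor ALK5, rose from 56.8 ± 4.11 to 94.64 ± 7.62 CPM (0.74 ± 0.08, edgeR adjusted p = 7.8e-07). The AT-rich interaction domain genes Arid3a and Arid3b rose by 0.65 ± 0.08 and 0.48 ± 0.06. Of the IGF2 mRNA-binding proteins, Igf2bp3 rose by 0.41 ± 0.05, Igf2bp2 by 0.29 ± 0.07 and Igf2bp1 by 0.25 ± 0.07, the last losing its call without control siRNA replicate 1 and without SB replicate 2. The gene that fell was the proto-oncogene Myc, from 38.84 ± 7.49 to 13.53 ± 1.1 CPM (-1.52 ± 0.15, edgeR adjusted p = 1.3e-06). The cell-cycle gene Ccnd2 rose by 0.44 ± 0.13, a call lost in 6 of 14 alternative settings, among them those without any 1 of the control siRNA replicates.

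With Activin in control siRNA cells, 5 of the 28 rose and 1 fell, against 2.95% and 1.88% of all genes tested. Myc rose by 0.77 ± 0.13, from 38.84 ± 7.49 to 66.11 ± 3.33 CPM, and its relative Mycn by 0.47 ± 0.1. The call of Mycn was lost without Activin replicate 3 and in a fit of only the libraries compared. Ccnd2 rose by 0.5 ± 0.13, a call lost in 9 of 14 settings. Nr6a1, a nuclear receptor gene, fell by 0.38 ± 0.05, from 324.1 ± 15.8 to 249.3 ± 3.0 CPM. In Vprbp siRNA cells, 4 of the list rose with Activin and 2 fell (3.65% and 2.47% of all genes), among them Myc, 0.61 ± 0.13, a call lost without Vprbp siRNA replicate 3, and Nr6a1, -0.4 ± 0.05. Activin against SB called 8 higher and 8 lower, with 19% of all genes in each direction.

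Nr6a1 has a UTR that holds 8 let-7 seed matches. Among the 3 groups of control siRNA cells its level was highest with SB and lowest with Activin. The same order of means stood for Hmga2, Lin28a and Trim71, and for some other genes of the target list. Nr6a1 rose by 0.37 ± 0.05 with SB (419.8 ± 2.64 CPM) and fell by 0.75 ± 0.05 for Activin against SB (edgeR adjusted p = 1.7e-09). Other tested genes with 4 or more matches did not share 1 direction. Trim6, with 6 matches, fell with SB by 0.36 ± 0.08, and Mcf2l, with 7, by 0.34 ± 0.11, a call lost in 6 of 14 settings. Hic2, with 4, was at 169.1 ± 7.1 CPM with SB against 154.0 ± 7.3 CPM, with a log2 difference of 0.13 ± 0.06 that did not pass. Nr6a1 apart, the genes of this paragraph were named after their values were seen.

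Of the 28 listed targets, 20 had a let-7 seed match in the transcript used (71.4%, against 9.1% of all UTRs). The genes were listed as known let-7 targets and the 9.1% is not matched for UTR length, so nothing is read from that excess. With SB, 11 of those 20 rose and 0 fell, with a median of 0.25. Of the 8 without a match, 1 rose and 1 fell, with a median of -0.12. With Activin, 1 rose and 1 fell of the 20 and 4 rose of the 8. The split of the list by matches was made after the values were seen, and it is no test. Myc, Mycn and Ccnd2 were among the 8.

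**Figure D5:**
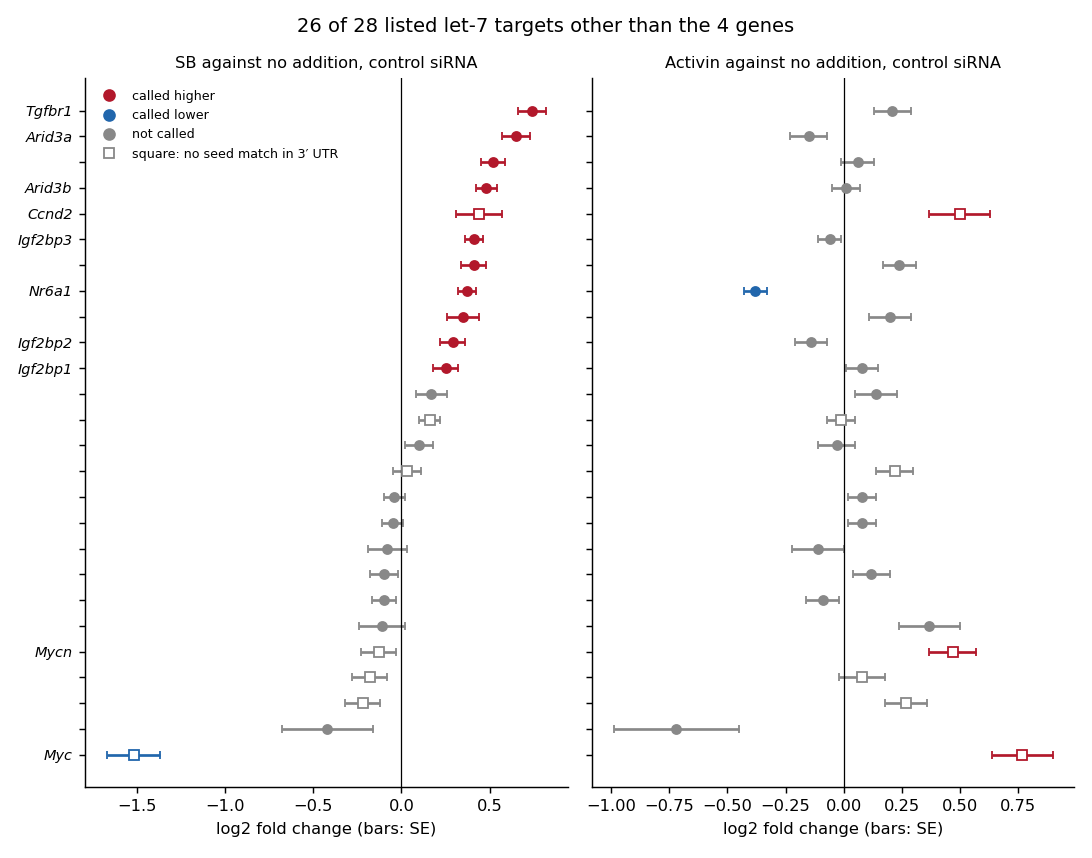
Log2 fold change (x axes, bars are SE) of 26 of the 28 listed let-7 targets, the 10 named in the text labelled, with SB (left) and Activin (right) against no addition in control siRNA cells. Circles have a let-7 seed match in the 3′ UTR and open squares have none, and red and blue mark genes called higher and lower.

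Over all tested genes with an annotated UTR, the share called higher with SB was 11.4% of 11936 genes without a match, 14.4% of 1255 with 1 match, 16.3% of 153 with 2 and 27.3% of 22 with 3 or more, the 4 genes left out. The last share is 6 of the 22 genes, among them Nr6a1 and Igf2bp1 of the target list above. The shares called lower were 11.7%, 10.5%, 9.2% and 9.1%, and the median log2 differences -0.005, 0.024, 0.05 and 0.106. The median UTR length moved with the number of matches, from 1061 to 2128, 3521 and 4791 bases, and its part was not tested. The differences between groups of genes were not tested.

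The let-7 genes themselves could not be followed. Of 12 let-7 and miR-98 loci in the table, 7 had a count of 0 in every library, the highest count was 5 and none was tested. Mature microRNAs are not measured by mRNA sequencing. Of the 20 listed let-7 and miR-125 loci and host genes, 1 passed the filter on low counts, and it was not called in any comparison.

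Genes of microRNA processing and silencing were read from a list of 23, of which 1 rose and 3 fell with SB, where 11.2% and 11.3% of all genes tested did. Ago1, an Argonaute protein gene, fell from 151.0 ± 21.1 to 75.54 ± 1.66 CPM (-1.0 ± 0.1, edgeR adjusted p = 9.7e-07). Zcchc6, the terminal uridylyl transferase TUT7 that acts with LIN28A on let-7 precursors, fell from 61.37 ± 2.63 to 43.34 ± 1.23 CPM (-0.5 ± 0.07). Their relatives on the list, Ago2 and Zcchc11, were not called with SB. Ago2 was at 238.8 ± 5.53 CPM without addition and 248.5 ± 13.6 CPM with SB (0.06 ± 0.09). Zcchc11 was at 255.4 ± 9.52 and 244.4 ± 6.3 CPM (-0.06 ± 0.07). Msi1, whose RNA-binding protein Musashi-1 has been described as a LIN28 partner, rose by 0.47 ± 0.08. Tarbp2, a Dicer partner, fell by 0.41 ± 0.13, a call lost without control siRNA replicate 1 or 2 or SB replicate 3. With Activin, Ago1 rose to 216.4 ± 8.49 CPM (0.52 ± 0.1), and Tnrc6c, a GW182 silencing factor gene, fell by 0.24 ± 0.07, a call lost in 5 of 14 settings, each without 1 library. Activin against SB called 4 higher and 4 lower, with 19% of all genes in each direction, among them Ago1 at 1.52 ± 0.1 and Zcchc6 at 0.66 ± 0.07.

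Among 4 mRNAs known to be repressed by TRIM71, the cyclin-dependent kinase inhibitor gene Cdkn1a fell with SB by 0.34 ± 0.09 and the splicing regulator gene Mbnl1 rose by 0.53 ± 0.15, where 11.3% and 11.2% of all genes tested fell and rose. The call of Cdkn1a was lost without SB replicate 2 or control siRNA replicate 3, and that of Mbnl1 without control siRNA replicate 1 or SB replicate 3. Activin in control siRNA cells called 0 of the 4, where 2.95% of all genes tested rose and 1.88% fell. Of 3 other TRIM-NHL genes, relatives of Trim71, Trim2 rose with SB by 0.47 ± 0.11. Activin called 0 of these 3 relatives in control siRNA cells, with the same shares of 2.95% and 1.88% over all genes.

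Oncofetal growth genes, which are on in the embryo and mostly off in adult tissues, rose with SB in 5 of 8 tested and fell in 0, against 11.2% and 11.3% of all genes tested. The growth factor gene Igf2 rose from 86.02 ± 9.3 to 408.8 ± 51.4 CPM (2.25 ± 0.53, edgeR adjusted p = 0.012). H19, the non-coding RNA gene beside it, rose from 109.6 ± 22.0 to 367.1 ± 47.6 CPM (1.74 ± 0.41). The other 3 were Igf2bp1, Igf2bp2 and Igf2bp3, which the target list also holds. With Activin against no addition in control siRNA cells, 0 of the 8 were called, where 2.95% of all genes tested rose and 1.88% fell.

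Of 12 core pluripotency genes, 7 fell and 0 rose with SB, against 11.3% and 11.2% of all genes tested. Pou5f1, which encodes OCT4, fell from 700.6 ± 36.1 to 364.2 ± 27.9 CPM (-0.94 ± 0.06), Dppa5a by 1.6 ± 0.09, Utf1 by 0.91 ± 0.08 and Dppa4 by 0.6 ± 0.09. With Activin, Tdgf1, the Nodal co-receptor gene, rose by 1.16 ± 0.28, a call lost in 7 of 14 settings, and Zfp42 fell by 0.36 ± 0.08, a call lost without Activin replicate 3. Beside these, the summed level of 7 trophoblast markers was 271.8 to 317.2 CPM with SB against 182.5 to 206.3 CPM without addition, where Elf5 was at 0. Of the 6 trophoblast markers tested, 3 rose and 0 fell. Krt18 rose from 49.79 ± 1.78 to 105.6 ± 16.4 CPM, Hand1 from 2.939 to 12.02 CPM and Gata3 from 1.195 to 4.377 CPM. Krt8 (18.49 to 42.64 CPM), Tfap2c (124.4 to 124.1 CPM) and Cdx2 (1.112 to 0.7474 CPM) were not called. The summed level of 6 mesoderm markers was 11.6 to 15.5 against 14.9 to 20.1 CPM. That of 7 neural progenitor markers was 177.4 to 203.6 against 195.6 to 221.2 CPM, where Neurog2 was at 0. Of the 6 neural progenitor markers tested, 1 rose and 1 fell with SB. Pax6 rose from 26.03 ± 2.37 to 43.29 ± 2.44 CPM (0.73 ± 0.13), and Sox1 fell from 53.47 ± 2.79 to 29.12 ± 4.46 CPM (-0.88 ± 0.13). For 7 endoderm markers the summed level was 89.6 to 107.0 against 82.1 to 89.4 CPM, where Afp was at 0 in both groups. For 6 fibroblast markers it was 41.0 to 46.4 against 56.8 to 75.9 CPM, and for 5 germ cell markers 76.3 to 85.4 against 101.9 to 113.4 CPM. The part of other cell types in the levels of Lin28a and Hmga2 was not tested.

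The knockdown called none of the 80 listed genes tested, with or without Activin, by edgeR's quasi-likelihood test. At an unadjusted p under 0.05 there were 11 and 10 of the 80, where 8.16% and 10.5% of all genes tested were under it, and DESeq2 called 0 and 2 of the listed genes. Over all genes 6 were called in each comparison (0.0411%), and 18 without addition in a fit with a replicate block, in which the listed genes called were again 0. The medians of the 28 targets were 0.12 without addition and 0.03 with Activin, against 0.0 over all genes in both.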

How the data were processed

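RNA was sequenced in 15 libraries, 5 groups of 3. The authors deposited fragment counts per gene symbol, without normalization, and per the submitters' processing notes HTSeq 0.6.1p1 and mm10 were used. An aligner, annotation or strand setting is not stated there, so overlapping and antisense genes cannot be told apart. Of 24456 rows, 5 are HTSeq tallies and were left out (no feature 10.3% to 16.02%, ambiguous 0.678% to 0.722%, not aligned 27.73% to 29.49% per library).

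Groups came from the sample titles. Counts were filtered with filterByExpr (minimum count 10), scaled by TMM and tested with edgeR 4.0.16 quasi-likelihood in R 4.3.3 over all 15 libraries, with Benjamini-Hochberg adjusted p under 0.05 over 14600 genes. CPM use scaled library sizes. Genes "rose" or "fell" only past that threshold. The procedure was tested on simulated data. The members and lists were chosen with earlier results of these data known. The text names the 4 genes, Vprbp, up to 4 genes with the smallest p per list and comparison (8 lists and 7 marker lists), and the 4 most correlated genes per member (mean log2 CPM 1 or more), without unnamed models; others are examples from the lists or were named after their values were seen. Some listed genes are not reported here. Alternatives were RLE factors, library totals, no filter, 1 CPM in 3 libraries, DESeq2 1.42.0, a replicate block, only the libraries compared, each library left out and the 3 libraries that lay apart left out.

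Nothing in the labels makes the replicates separate cultures: p-values then reflect the spread among these libraries alone, possibly a technical one. Replicate pairs differed by more than sampling noise (chi-square per degree of freedom 2.73 to 15.713). Pairing was checked on the data, as the labels give no reason for the numbers. Same-numbered libraries deviated from their group means with correlations of 0.123, 0.196 and 0.369 between control siRNA and Vprbp siRNA without addition, and no other groups exceeded 0.1 at all 3 numbers.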

Additional observations from a re-analysis of the deposited data

How the results depend on the processing

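Of 336 values of the 4 genes under the alternatives, 335 lay within the spread between replicates of the reported value. The exception was Lin28a for Activin against SB, at -0.87 with library totals. Within that spread the sign of some differences still turned with 1 library left out, as given above for Lin28a, Trim71 and Hmga2. Scaling by RLE or library totals turned no called direction. Counts of called genes moved more. The 705 genes called for Activin in control siRNA cells became 1058 with a replicate block, and 265 to 721 with 1 library left out (lowest without Activin replicate 3). For Vprbp siRNA without addition, 6 became 10 without a filter, 31 with DESeq2, 18 with the replicate block, 1 with only the libraries compared and 76 without the 3 libraries that lay apart, and 2 to 37 with 1 library left out (lowest without Vprbp siRNA replicate 1, highest without replicate 3). With Activin, 6 became 15, 76, 51, 68 and 205 in the same order, and 0 to 21 (lowest without control siRNA with Activin replicate 1, highest without Vprbp siRNA with Activin replicate 3). Of the listed genes there, 0 became 2 with DESeq2, 1 with the replicate block and 2 with only the libraries compared. For Activin in Vprbp siRNA cells, 894 became 373 with only the libraries compared and 351 to 1167 with 1 left out (lowest without Vprbp siRNA replicate 3, highest without Vprbp siRNA with Activin replicate 3), and the 10 listed genes became 6 and 3 to 14. Listed genes for Activin in control siRNA cells went from 10 to between 4 and 10. The cause of these moves was not tested. At 15.7 CPM or more in every library, all 4 genes lay above the limit that a count of 0 allows.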
